A study of Rattus norvegicus with 6 samples.

Results

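Calcium that enters a cell or leaves its stores binds calmodulin, and calcium-loaded calmodulin switches on a family of protein kinases. In the cascade branch the kinase kinase Camkk1 phosphorylates Camk1 and Camk4, while the Camk2 kinases form large multimers that stay active after they phosphorylate themselves and are very abundant at synapses. The genes described here are the kinases Pnck (also known as the beta form of Camk1), Camk1, Camk2a, Camk2b, Camk2d, Camk2g, Camk4 and Camkk1, the kinase Dapk3, and Cabp1, a calmodulin-like calcium-binding protein of neurons. Dapk3 belongs to the calmodulin kinase group by its kinase domain but lacks the calmodulin-binding segment of its relatives, so the link of this gene to calmodulin is one of family.

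The members were all probe sets that the annotation of the RG_U34A array assigns to 1 of these 10 genes, which gave 24 of 8799 probe sets, for 10 of 4737 named genes. Pnck, Dapk3 and Cabp1 had been selected on their intensities in these arrays, higher in both drug groups than in control, so their differences from control are given as a description with no test, as are those of the other 7 genes. The 6 arrays, 2 in each of 3 groups, measured brain capillary RNA of SHRSP, the stroke-prone strain of spontaneously hypertensive rats, at 6 weeks of age. The groups were untreated SHRSP (control), SHRSP given the converting enzyme inhibitor lisinopril at 6 mg/kg per day (ACEI), and SHRSP given the angiotensin receptor blocker olmesartan at 4 mg/kg per day by mouth (ARB). A 1% NaCl treatment is named too, but which groups were given this salt was not given in the sources used here. Nothing in the labels says that the 2 arrays of a group came from separate animals, so p-values measure only the spread between these arrays, which may be technical.

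Several facts of the arrays touch the values below. Of the 6 arrays, control 1 and ACEI 1 shared an earlier run day and chip lot, and the other 4, with both ARB arrays, shared a later day and lot. The arrays of the control group were the least alike, with a Pearson correlation of 0.747 across tested probe sets, which are not independent replicates, against 0.907 for ACEI and 0.877 for ARB. For Gapdh the 3'/5' signal ratio, which is raised where RNA is degraded, was 7.31 on control 2 and 0.933 to 1.59 elsewhere. The 15 control probe sets for bacterial transcripts had their highest medians with ARB, 91.4 and 80.9, against 18.4 to 28.8 elsewhere, and the part of this in low ARB intensities was not tested. Endothelial genes gave strong signal: 13 of 16 listed markers were tested, with a summed intensity of 67140 to 151298 per array. For Cldn5, Cdh5 and Tek no tested probe set was named.

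For Pnck, Dapk3 and Cabp1, whose RNA levels were the reason for the choice, the 250 bases before an annotated start (RefSeq, build GRCr8, read 5' to 3' on the gene's strand) are shown to let their promoters be compared. Capitals mark the GC box GGGCGG and the half-site TGACG of the cAMP response element, the element bound by CREB, which calmodulin kinases phosphorylate, both searched on both strands.
Pnck, chrX:156524654-156524903, minus strand: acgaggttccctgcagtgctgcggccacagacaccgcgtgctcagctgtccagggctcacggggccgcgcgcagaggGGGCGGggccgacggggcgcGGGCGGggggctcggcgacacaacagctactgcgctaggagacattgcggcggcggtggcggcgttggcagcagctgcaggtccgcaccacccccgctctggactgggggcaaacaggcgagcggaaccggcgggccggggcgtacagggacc
Dapk3, chr7:9183273-9183522, minus strand: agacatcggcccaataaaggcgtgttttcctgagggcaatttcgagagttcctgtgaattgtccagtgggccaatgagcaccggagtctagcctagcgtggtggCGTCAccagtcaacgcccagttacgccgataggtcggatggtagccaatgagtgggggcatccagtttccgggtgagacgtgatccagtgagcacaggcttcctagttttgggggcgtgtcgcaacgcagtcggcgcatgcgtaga
Cabp1, chr12:47085042-47085291, plus strand: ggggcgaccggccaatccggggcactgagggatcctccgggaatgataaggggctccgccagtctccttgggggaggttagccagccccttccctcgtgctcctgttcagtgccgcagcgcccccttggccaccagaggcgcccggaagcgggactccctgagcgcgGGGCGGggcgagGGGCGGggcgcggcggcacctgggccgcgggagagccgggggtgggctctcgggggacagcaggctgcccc
The reference lists another start for Cabp1 and its Pnck gene model extends upstream of the start used, and which start the capillaries use was not measured. In the windows shown Pnck and Cabp1 each held 2 GC boxes and no half-site, and Dapk3 held 1 half-site and no GC box. The window of the other Cabp1 start held 0 GC boxes and no half-site. All 10 genes matched the promoter table, with 11 windows. The full element TGACGTCA was in 0 of these 11 windows (1.59% of 33469 promoter windows of the same length), the half-site, which the full element contains, in 4 (18.2%), the GC box in 6 (30.5%) and the TATA box TATAAA in 0 (12.9%). The 6 windows with a GC box had 74.4 to 80.8% G and C letters, where the median of all promoter windows was 51.2%. A match is a description of letters and not a bound site.

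Differences below are on the scale of log2(intensity + 90), ± the standard error (SE) of a limma model with 1 mean per group and 2 arrays per group. RAS blockade means the average of both drug groups minus control, where RAS is the renin-angiotensin system. Probe sets with a mean intensity below 269, which were 40% of all, were not fitted. Of the members 13 of 24 probe sets, for 8 of 10 genes, lay above that filter, while no probe set of Camk2a or Camk4 did.

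Pnck was read by 3 probe sets that did not tell one story. AB004267_g_at had an intensity of 167 and 130 in the control pair, 660 and 784 in the ACEI pair, and 385 and 913 in the ARB pair. All 4 treated arrays lay above both controls, and the ACEI and ARB arrays overlapped. The difference was 1.65 ± 0.44 for RAS blockade (3.14-fold), 1.77 ± 0.51 for ACEI and 1.54 ± 0.51 for ARB. AB004267_at, built on the same sequence entry but below the filter, had 72.3 and 54.3 in the control pair, 170 and 388 in the ACEI pair and 339 and 222 in the ARB pair, again with every treated array above both controls. Of the remaining probe set, D86556_i_at, the intensity was 723 and 38.5 in the control pair, 190 and 21.1 in the ACEI pair and 105 and 741 in the ARB pair. There the groups overlapped, the arrays of a group differed by several fold, and the difference for RAS blockade was -0.28 ± 0.86, 1.05 without control 1 and -1.61 without control 2. Its values and those of AB004267_g_at had a correlation of 0.0661 over the 6 arrays. For AB004267_g_at the difference was 1.76 and 1.54 without control 1 and control 2, and between arrays of the same run day ACEI 1 exceeded control 1 by 1.54 and ACEI 2 exceeded control 2 by 1.99.

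Dapk3, a kinase that phosphorylates myosin light chains and takes part in cell death signalling, was brightest on the ARB arrays. AJ006971_g_at had 1640 and 1583 in the control pair, 1903 and 3208 in the ACEI pair and 9864 and 10139 in the ARB pair. The control values lay close together, the ACEI arrays lay above them, and the ARB arrays lay far above both groups. The difference from control was 0.59 ± 0.47 with ACEI (1.51-fold) and 2.57 ± 0.47 with ARB (5.93-fold). AJ006971_at, on the same sequence entry, had 1089 and 35.2 in the control pair, 1402 and 1411 in the ACEI pair and 5084 and 4320 in the ARB pair. The order of the groups was the same, but control 2 alone was very low. The difference of AJ006971_at for RAS blockade, 2.80 ± 0.78, was therefore 1.18 without control 2 and 4.42 without control 1, against 1.56 and 1.60 for AJ006971_g_at.

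Cabp1 binds voltage-gated calcium channels and inositol trisphosphate receptors and changes how they open. Y17048_g_at had 889 and 1048 in the control pair, 1368 and 1825 in the ACEI pair, and 5709 and 5881 in the ARB pair. As with Dapk3 the groups did not overlap and the order was control, ACEI, ARB. The difference from control was 0.66 ± 0.45 with ACEI (1.58-fold) and 2.48 ± 0.45 with ARB (5.57-fold). Y17048_at had 196 and 109 in the control pair, 263 and 535 in the ACEI pair and 1581 and 478 in the ARB pair, so its ARB 2 value fell between the ACEI values. Both probe sets had all 4 treated arrays above both controls, with differences for RAS blockade of 1.57 ± 0.39 and 1.51 ± 0.54. Among arrays of the later run day alone, Y17048_g_at exceeded control 2 by 0.75 on ACEI 2 and by 2.37 on the ARB pair. That lone control array was the one with the Gapdh 3'/5' ratio of 7.31.

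**Figure D1:**
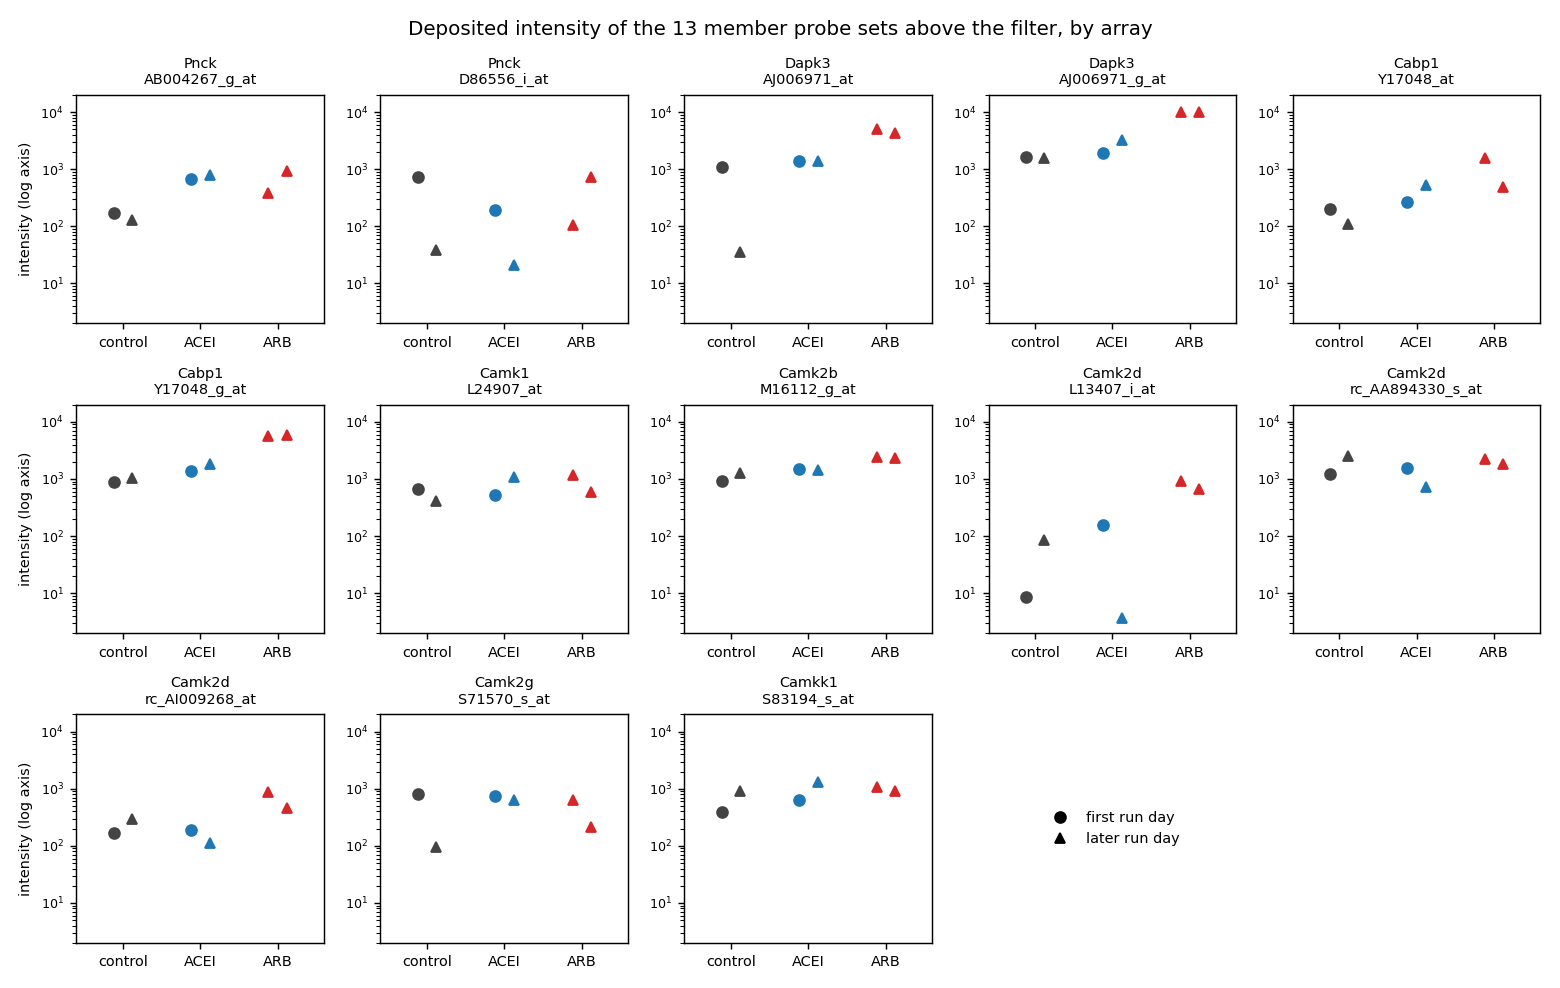
Intensity (log axis) on each array of the 13 member probe sets above the filter, in control, ACEI and ARB order; circles are arrays of the first run day and triangles of the later one. Dapk3 AJ006971_g_at lies at 1640 and 1583 with control and at 9864 and 10139 with ARB, while Pnck D86556_i_at overlaps in all groups.

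Among the cascade kinases Camkk1 and Camk1 passed the filter, and in neither did all treated arrays lie above both controls. The upstream kinase Camkk1 (S83194_s_at) had 394 and 912 in the control pair, 637 and 1320 in the ACEI pair and 1076 and 926 in the ARB pair. Both ARB arrays lay above both controls, the nearer by little (926 against 912), while ACEI overlapped control. Its control arrays differed by 1.05, more than the RAS blockade difference of 0.59 ± 0.48, which was 0.07 without control 1 and 1.12 without control 2. Camk1, its broadly expressed substrate, had 674 and 411 in the control pair, 522 and 1072 in the ACEI pair and 1168 and 599 in the ARB pair. All 3 groups overlapped, and the difference was 0.52 ± 0.48. Camk4, the nuclear kinase that phosphorylates CREB, lay below the filter on both probe sets, with intensities from 8.6 to 188. M63333exon_s_at was below the median of the bacterial control probe sets on every array, at 8.6 to 14.6 with control or ACEI and at 48.5 and 66.9 with ARB.

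The 4 Camk2 genes were read by 13 probe sets. Camk2a, the isoform typical of excitatory neurons of the forebrain, was low on both of its probe sets, with intensities from 13.9 to 142, and neither passed the filter. J02942_at had 49.7 and 52.6 in the control pair, 142 and 14.0 in the ACEI pair and 120 and 59.6 in the ARB pair. Camk2b, the other main brain isoform, had on M16112_g_at 920 and 1261 in the control pair, 1504 and 1441 in the ACEI pair and 2395 and 2348 in the ARB pair. The groups did not overlap, in the order control, ACEI, ARB, with 0.42 ± 0.45 for ACEI and 1.08 ± 0.45 for ARB. M16112_at, on the same sequence entry, was at 5.6 to 56.6 and above the bacterial control median on 1 of 6 arrays. Camk2g, a broadly expressed isoform, had on S71570_s_at 825 and 97.4 in the control pair and 211 to 740 on the treated arrays. The control arrays thus enclosed all treated arrays, and the RAS blockade difference of 0.54 ± 0.67 was -0.61 without control 2 and 1.68 without control 1. The other Camk2g probe sets stayed at 91.4 or below and under the filter.

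Camk2d, the isoform of heart and vascular smooth muscle, had the most probe sets, 6, and their pattern was shared in part. J05072_at had 190 and 204 in the control pair, 142 and 88.8 in the ACEI pair and 345 and 471 in the ARB pair, so the ACEI arrays lay below both controls and the ARB arrays above. In rc_AI009268_at the intensities were 170 and 299 in the control pair, 190 and 113 in the ACEI pair and 883 and 456 in the ARB pair. Those of rc_AA925495_at were 69.7 and 137, 94.0 and 133, and 285 and 361. On all 3 the ARB arrays lay above both other groups. ACEI below and ARB above both controls was found in 4.25% of tested probe sets, which do not include J05072_at, as it lay below the filter. L13407_i_at had 8.5 and 85.6 in the control pair, 156 and 3.7 in the ACEI pair and 933 and 666 in the ARB pair, where the ACEI arrays spanned the control values. The brightest, rc_AA894330_s_at, had 1215 and 2479 in the control pair, 1543 and 713 in the ACEI pair and 2219 and 1861 in the ARB pair, with the ARB arrays inside the control range. L13406_s_at went the other way, with 202 and 93.4 in the ACEI pair against 48.9 and 84.6 in the ARB pair, and 86.8 and 13.5 in the control pair. It lay below the filter and above the bacterial control median on only 4 of 6 arrays.

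Over all 24 probe sets 10 had every treated array above both controls, 6 of them above the filter, and 0 had every treated array below both controls. Over the tested probe sets of the whole array 4.63% were above and 3.68% below. Since higher values after treatment were the reason for choosing 3 of the genes, nothing is read from that count. After quantile or cyclic loess normalization it was 8, with the same 6 above the filter. The median RAS blockade difference was 0.51, and 22 of 24 were above 0. These were 0.26 and 19 after quantile and 0.23 and 17 after cyclic loess normalization. Over all 5244 tested probe sets the median was 0.14, -0.02 after quantile and 0.03 after cyclic loess normalization. Of these probe sets 60.2%, 48.4% and 52.1% were above 0, and of the 13 members above the filter 11 were in each case. With ARB 18 of 24 probe sets lay above both controls, 9 of them among the 13 above the filter. With ACEI 11 did, 6 of them above the filter. Of all tested probe sets, which lay above the filter, 34.3% and 11.4% did. The choice of 3 genes used these differences too, so nothing is read from these counts either. After quantile or cyclic loess normalization the counts with ARB and ACEI were 10 and 10, and ARB minus control was above 0 for 19 and 16 of the 24. Over all tested probe sets ARB minus control was above 0 for 58.6%, and for 48.1% and 51.2% after these normalizations. ACEI and ARB share the control arrays.

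**Figure D2:**
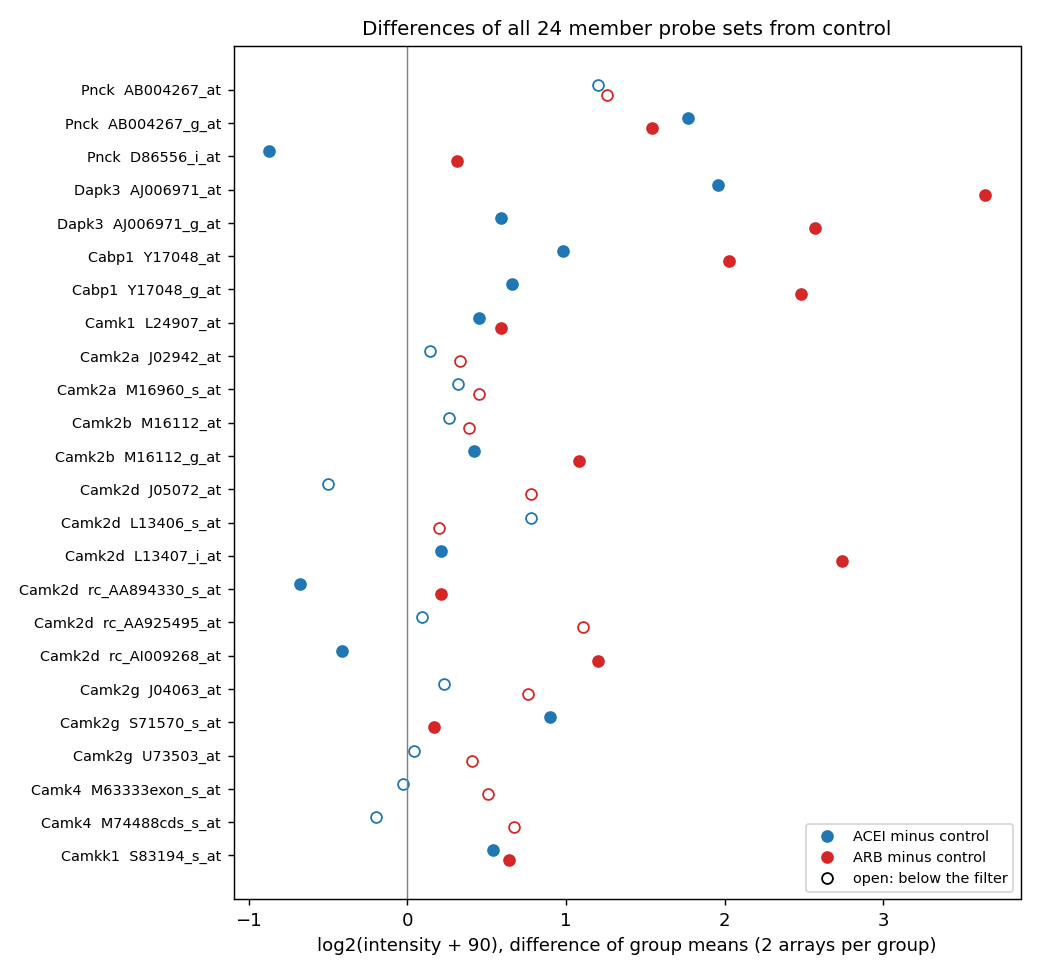
Difference from control of each of the 24 member probe sets for ACEI (blue) and ARB (red), as the difference of group means of log2(intensity + 90), 2 arrays per group; open circles lie below the filter. All 24 ARB values are above 0 (19 after quantile and 16 after cyclic loess normalization), where 58.6% of all tested probe sets are (48.1% and 51.2%). The ARB values of Dapk3 AJ006971_g_at and Cabp1 Y17048_g_at are 2.57 and 2.48 where the ACEI values are 0.59 and 0.66.

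The difference between the drugs does not use the control means and was tested in limma over all 5244 probe sets with Benjamini-Hochberg adjustment. It does use the ACEI and ARB arrays, on which Pnck, Dapk3 and Cabp1 were selected too. The ARB arrays exceeded the ACEI arrays by 1.98 ± 0.47 for Dapk3 AJ006971_g_at (3.94-fold, adjusted p = 0.107, 95% interval 0.90 to 3.05) and by 1.82 ± 0.45 for Cabp1 Y17048_g_at (3.52-fold, adjusted p = 0.109, 0.79 to 2.84). In both, each ARB array lay above each ACEI array. The other probe sets of these genes were at 1.67 ± 0.90 (Dapk3, adjusted p = 0.295) and 1.05 ± 0.62 (Cabp1, adjusted p = 0.338). That Cabp1 value was 0.27 without ARB 1, 1.83 without ARB 2 and 0.64 without ACEI 1. Camk2d was at 2.53 ± 0.60 on L13407_i_at (adjusted p = 0.106) and 1.61 ± 0.51 on rc_AI009268_at (adjusted p = 0.132). Both of these were above the filter only through the ARB arrays, as their means without those arrays were 63.5 and 193, so they had to differ. L13407_i_at ranged from 1.41 with the larger offset to 5.03 with no offset, and was at 3.23 without ACEI 1, 1.84 without ACEI 2 and 1.79 after cyclic loess normalization. The brightest Camk2d probe set was at 0.89 ± 0.56 (0.38 without ACEI 2 and 1.40 without ACEI 1) and Camk2b at 0.66 ± 0.45.

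Pnck AB004267_g_at was at -0.23 ± 0.51 for ARB minus ACEI, with a 95% interval of -1.41 to 0.94 that covers differences in either direction. The other tested Pnck probe set, D86556_i_at, had the opposite sign at 1.19 ± 0.99 (adjusted p = 0.497), with 0.14 without ARB 2 and 2.24 without ARB 1. Its mean without the ARB arrays, 243, lay below the filter. Camk1 was at 0.14 ± 0.55 (-1.12 to 1.41) and Camkk1 at 0.10 ± 0.56 (-1.17 to 1.38), with intervals as wide. Camk2g S71570_s_at was at -0.72 ± 0.77 (-0.09 without ARB 2 and -1.36 without ARB 1). In limma 0 of the 13 members passed an adjusted p of 0.05 and 4 had an unadjusted p under 0.05, all higher with ARB. Leaving out the 3 that were above the filter only through the ARB arrays (both Camk2d probe sets named and Pnck D86556_i_at) left 10. Of these 10, 2 had an unadjusted p under 0.05, both named above (Dapk3 AJ006971_g_at and Cabp1 Y17048_g_at). Both are of genes selected on these arrays, so nothing is read from that count. On the whole array 0 of 5244 passed (0% called), 16.9% were higher and 6.69% lower at an unadjusted p under 0.05, and 38.2% had both ARB arrays above both ACEI arrays, as 7 of the 13 members had, while 25.2% had both below, as 0 of the 13 had. Without the same 3 probe sets, 5 of 10 had both ARB arrays above both ACEI arrays. ARB minus ACEI was above 0 for 21 of all 24 probe sets, but for 13 after quantile and 12 after cyclic loess normalization; of the 13 above the filter it was above 0 for 11, and for 9 after either normalization. Over all tested probe sets its median was 0.18, and -0.02 and 0.02 after these normalizations, with 57.0%, 48.9% and 50.8% above 0.

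The control arrays, although not compared, sets part of the spread in that fit. When only the ACEI and ARB arrays were fitted, 381 probe sets passed, among them 4 members: Dapk3 AJ006971_g_at (adjusted p = 0.0411) and AJ006971_at (adjusted p = 0.0441), Cabp1 Y17048_g_at (adjusted p = 0.0408) and Camk2d L13407_i_at (adjusted p = 0.0426). The Camk2d probe set was above the filter only through the ARB arrays, which leaves 3 of 10 members without such probe sets. These 3 are of Dapk3 and Cabp1, genes selected on these arrays. Also 381 passed without control 1 or without control 2, since a lone control array adds nothing to the spread. Over the alternatives run the adjusted p ranged from 0.0257 to 0.640 for Dapk3 AJ006971_g_at, from 0.0441 to 0.709 for AJ006971_at, from 0.0279 to 0.640 for Cabp1 Y17048_g_at and from 0.0255 to 0.640 for Camk2d L13407_i_at. Within the later run day, which held ACEI 2 and both ARB arrays, the difference was 1.61 for Dapk3 AJ006971_g_at, 1.62 for Cabp1 Y17048_g_at, 1.84 for Camk2d rc_AI009268_at and -0.34 for Pnck AB004267_g_at. After quantile normalization Dapk3 was at 2.28 and Cabp1 at 2.12.

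**Figure D3:**
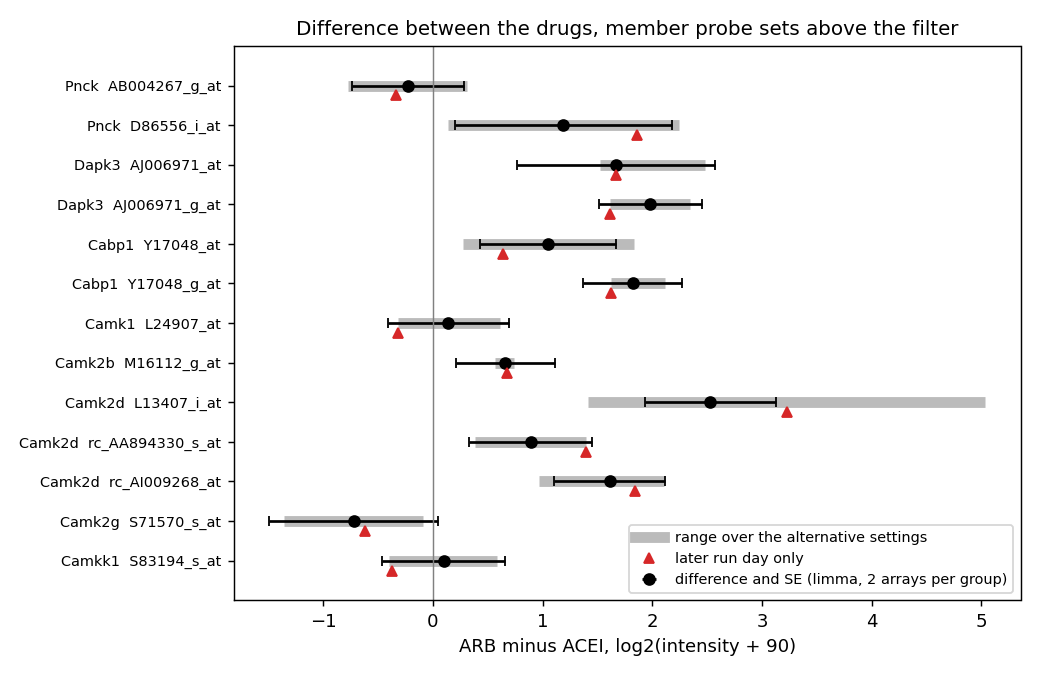
ARB minus ACEI difference of the 13 member probe sets above the filter on the log2(intensity + 90) scale: points and bars are the limma estimate and its SE, grey bands the range over the alternative settings that keep probe sets apart, and red triangles the later run day alone. Dapk3 AJ006971_g_at (1.98) and Cabp1 Y17048_g_at (1.82) have bands that start at 1.61 and 1.62, while Pnck AB004267_g_at (-0.23), Camk1 (0.14) and Camkk1 (0.10) have bands on both sides of 0.

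Markers of neurons and of other cell types were read on the same arrays. All 10 tested neuron markers of 18 listed had higher values with RAS blockade (9 after quantile or cyclic loess normalization), as had 1822 of all 3186 genes. The median difference of the markers was 0.98, with 4 at an unadjusted p under 0.05 (3.43% of all tested probe sets were higher at that p) and 0 after adjustment in limma. At that p 3 of 5 microglia and macrophage, 2 of 8 smooth muscle and pericyte, 1 of 13 endothelial and 1 of 5 astrocyte markers were lower, where 2.02% of all tested probe sets were. The summed intensity of the neuron markers was 2938 and 4972 in the control pair, 7184 and 6887 in the ACEI pair and 7337 and 10097 in the ARB pair. On this sum the treated arrays did not overlap the controls. The neuron list held no tested probe set for Rbfox3, Nefm, Syt1, Stmn2, Eno2, Tubb3, Gad2 and Slc17a7. The neuron list's median was 0.37 without control 1 and 1.04 without control 2. In whole capillary preparations more cells of a type and more RNA per cell cannot be told apart, and the part of neuronal RNA in the values of Pnck, Cabp1 and Camk2b was not tested.

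Between the drugs 7 of 10 neuron markers had higher values with ARB, and 4 of 10 after quantile or cyclic loess normalization. For other cell types most values were lower with ARB than with ACEI: 0 of 5 oligodendrocyte, 1 of 5 astrocyte, 0 of 5 microglia and macrophage, and 2 of 13 endothelial markers were above 0. At an unadjusted p under 0.05, 3 oligodendrocyte, 4 astrocyte, 3 microglia and macrophage, and 2 endothelial markers were lower, where 6.69% of all tested probe sets were. No astrocyte signal of Gfap, Aqp4 or Gja1 was tested. The summed astrocyte intensity was 35188 and 48349 in the ACEI pair and 11936 and 10647 in the ARB pair, and 33958 and 24707 in the control pair. Smooth muscle and pericyte markers were higher with ARB in 7 of 8. In none of the 6 marker lists did a gene pass an adjusted p of 0.05 for any contrast in limma. For RAS blockade the medians were 0.34 (endothelial, -0.69 without control 2 and 1.58 without control 1), -0.55 (smooth muscle and pericyte), 0.07 (astrocyte), 0.17 (oligodendrocyte) and -1.06 (microglia and macrophage). The part of these shifts in the ARB values of Dapk3 and Cabp1 was not tested.

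**Figure D4:**
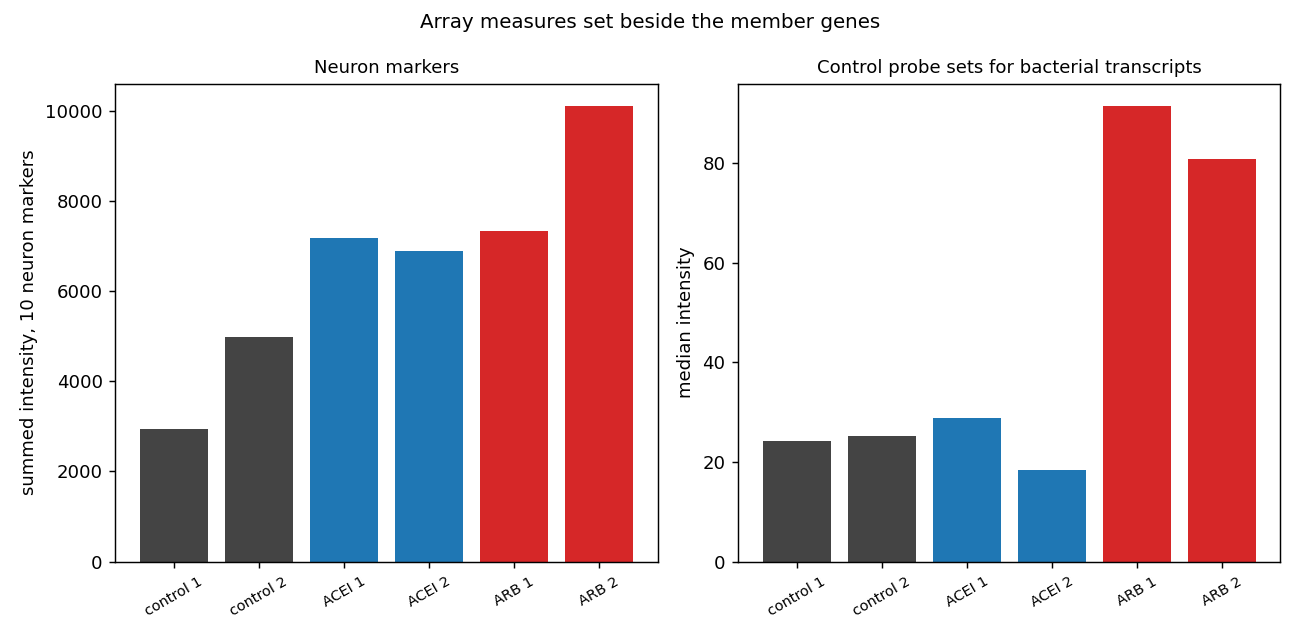
Left, summed intensity of the 10 tested neuron markers on each array (linear axis from 0); right, median intensity of the 15 control probe sets for bacterial transcripts. The neuron sum is lowest on the controls (2938 and 4972), and the bacterial control median is highest on the ARB arrays (91.4 and 80.9).

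The other genes of calcium and calmodulin signalling were read from 7 lists with 106 genes, 54 of them tested at 1 probe set per gene. In limma 0 of 54 passed an adjusted p of 0.05 for RAS blockade, as did 0 of all 5244 probe sets (0% called), with a lowest adjusted p of 0.832. At an unadjusted p under 0.05, 3 were higher and 1 lower, where 3.43% and 2.02% of all probe sets were, 5.45% in all. Of the 3, Pvalb was above the filter only through the ARB arrays. The same was true of Dclk1, Hpcal4 and Penk among the genes of these 7 lists named below, and it was not counted for the unnamed genes. The median difference of the 54 genes was 0.19, against 0.10 over all 3186 genes. Above 0 were 39 of the 54 and 1822 of the 3186.

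All 9 tested calmodulin kinase relatives and Camk2 inhibitors were above 0 for RAS blockade (median 0.38, and 8 of 9 after quantile normalization). The drugs differed in this: with ACEI 4 of 9 were above control (median -0.08), and with ARB 9 of 9 (median 0.78). Of all tested probe sets 46.7% were above control with ACEI and 58.6% with ARB. Camkv, a kinase-like synaptic protein without kinase activity, had 481 and 656 in the control pair, 898 and 1387 in the ACEI pair and 1384 and 1445 in the ARB pair. Every treated array was above both controls, with a difference of 1.05 ± 0.40 (unadjusted p = 0.0308, adjusted p = 0.835), while its other probe set was at 0.18. Camk2n1, an inhibitor of Camk2, was at 0.71 ± 0.88, and at -1.15 without control 2, which had 15.5 against 1291 on control 1. The other Camk2n1 probe set was at 0.09. Dclk1, above the filter only through the ARB arrays, was at 0.64 and the phosphorylase kinase subunit Phkg2 at 0.39.

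Of 5 tested calmodulin and calmodulin-storing genes 2 were higher, with a median of -0.02 (-0.53 without control 1 and 0.49 without control 2). The calmodulin gene Calm2 had 3733 and 5648 in the control pair, 4235 and 4918 in the ACEI pair and 2406 and 2763 in the ARB pair, a difference of -0.41 ± 0.40. Its ARB arrays lay below all others. Gap43, a growth cone protein that binds calmodulin, was at 0.61 and Pcp4 at 0.40. Marcks was at -0.68 on the probe set used and between 0.19 and 0.91 on its other 4. Both tested calcineurin genes, which encode the calcium-dependent phosphatase that often opposes the kinases, were higher. Ppp3ca was at 1.08 ± 0.49 (0.34 without control 2) and Ppp3r1 at 1.01 ± 0.46 (0.72 without control 2, and 0.57 on its other probe set). Neither passed, with an adjusted p of 0.835 for each in limma.

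All 5 tested calcium sensors and buffers were higher with RAS blockade (median 0.70, and 0.42 and 0.38 after quantile and cyclic loess normalization). With ACEI 3 of 5 were higher than control, and with ARB 5 of 5. Pvalb, the calcium buffer of fast-firing interneurons, had 125 and 115 in the control pair, 297 and 270 in the ACEI pair and 438 and 496 in the ARB pair. The groups did not overlap, and the difference was 1.12 ± 0.38 (unadjusted p = 0.0172, adjusted p = 0.835). Without the ARB arrays the Pvalb mean lay below the filter, so Pvalb was tested only through the arrays where it was highest. Hpca, a neuronal calcium sensor, was at 0.95 ± 0.40 (unadjusted p = 0.0439, adjusted p = 0.835), Hpcal4 at 0.70 and Hpcal1 at 0.55 (-0.22 without control 2). Hpcal4 was at 0.52 and 0.54 on its other probe sets, and the one used was above the filter only through the ARB arrays. As background, Pvalb and Hpca are mainly neuronal, like Cabp1.

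Substrates and other effectors gave 9 of 12 higher with a median of 0.14, and 4 of 12 higher with a median of -0.06 after quantile normalization. Without control 2 the median was -0.18. The largest were the calcium pumps Atp2b1 at 0.71 (-0.29 without control 2) and Atp2b2 at 0.51 (0.16 without control 1), the synapsin gene Syn1 at 0.45 and the endothelial nitric oxide synthase Nos3 at 0.34 (-0.96 without control 2). Other probe sets were at -0.01 and 0.67 (Atp2b1), 0.04 to 1.07 (Atp2b2) and -0.32 to 0.24 (Nos3). Among genes driven by CREB 5 of 10 were higher. Nr4a1, an immediate early nuclear receptor, had 10250 and 11120 in the control pair, 5420 and 5591 in the ACEI pair and 3823 and 3529 in the ARB pair. All treated arrays lay below both controls, at -1.23 ± 0.38 (unadjusted p = 0.0108, adjusted p = 0.832), while its other probe set was at -0.33. Sst was at 0.68 (-0.13 without control 1, and 0.36 on its other probe set), Egr2 at -0.61 (-0.04 without control 2) and Penk at 0.58.

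Calcium channels gave 7 of 11 higher with a median of 0.11 (-0.04 and -0.07 after quantile and cyclic loess normalization). With ACEI 2 of the 11 were higher than control, and with ARB 11. All 11 were higher with ARB than with ACEI, also after both normalizations, with a median of 1.05 (0.80 and 0.78). Of all tested probe sets 57.0% were higher (48.9% and 50.8%). In limma 4 of the 11 had an unadjusted p under 0.05, where 16.9% of all tested probe sets were higher at that p, and 0 passed the adjustment. A channel gene above the filter only through the ARB arrays had to be higher with ARB. Such genes were not counted among the 11, so nothing is read from these counts. The channel subunit gene Cacna1c had 499 and 593 in the control pair, 576 and 419 in the ACEI pair and 1458 and 1953 in the ARB pair. The NMDA receptor subunit gene Grin2c had 874 and 1846, 1531 and 1233, and 4063 and 3754. In both the ARB arrays stood above all others, as on Cabp1 Y17048_g_at and both Dapk3 probe sets, but not on Cabp1 Y17048_at. Of all tested probe sets 38.2% had both ARB arrays above both ACEI arrays, and 34.3% had them above both controls. The share with ARB above both groups at once was not counted, so nothing is read from this likeness. The RAS blockade differences were 0.68 for Cacna1c and 0.82 for Grin2c (0.32 without control 1), with Grin2a at 0.58 (0.17 without control 2) and Cacna1b at -0.56. Other probe sets were at 0.68 and 0.36 (Cacna1c), 0.31 (Grin2c), 0.05 (Grin2a) and -0.01 (Cacna1b).

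Among 3178 other genes, those closest to Cabp1 Y17048_g_at over the 6 arrays were Gpc1, a proteoglycan (Pearson r = 0.992), Nolc1, a nucleolar protein (0.988), and Chrna1, a subunit of the muscle acetylcholine receptor (0.980). Closest to Dapk3 AJ006971_g_at were Nolc1 (0.987), Cfp (0.984) and Chrna1 (0.977), so 2 of 3 names were the same. Chrna1 had 65.9 and 87.4 in the control pair, 93.5 and 119.9 in the ACEI pair and 810 and 640.7 in the ARB pair. It was above the filter only through the ARB arrays, so it had to be higher there, and nothing is read from its likeness. Nolc1 had 780 and 867 in the control pair, 829 and 974 in the ACEI pair and 1676 and 1721 in the ARB pair. Closest to Pnck AB004267_g_at were the phosphatase subunit gene Ppp1cc (0.962), Fat1 (0.952) and the GABA-B receptor subunit gene Gabbr2 (0.950). Gabbr2 had 594 and 463 in the control pair, 1071 and 955 in the ACEI pair and 941 and 1268 in the ARB pair. As in Pnck, both drug groups lay above control and overlapped each other. These correlations rest on 6 arrays that share scale and run days and describe them only.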

How the data were processed

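RNA of SHRSP brain capillaries was measured on 6 Affymetrix RG_U34A arrays. The deposited table holds 1 intensity per probe set and array on a linear scale, with trimmed means of 997.7 to 1002 that point to scaling by the authors; software and background correction: not given in the sources used here. Per the file headers, the deposited run files hold other settings (text), used for run day, chip lot and fluidics protocol. The number of arrays limits the precision.

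Of 8799 probe sets 7018 had 1 gene symbol, 308 several and 1473 none; those with several were named by none, and 0 member symbols changed in the reference gene table. After 59 control probe sets were left out, the 5244 of 8740 above the 40% filter were fitted with limma 3.58.1 in R 4.3.3 on log2(intensity + 90) (two-sided, Benjamini-Hochberg adjustment, threshold 0.05; residual degrees of freedom 3, prior 5.39). The offset is the median of all intensities above 0 divided by 4. Named genes were all members, up to 4 genes per pathway list with the largest absolute RAS blockade difference, and the 3 genes most like Pnck, Dapk3 and Cabp1. Members and lists were chosen with earlier results of these data known. Tables used Python 3.11.15 and pandas 2.3.3, figures matplotlib 3.10.9. The fit was tested on simulated data. The alternatives were other offsets, filters and normalizations, blocks, weights, fits of fewer arrays and leaving out each array.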

Additional observations from a re-analysis of the deposited data

Results flagged for a closer look

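Camk2d J05072_at had both ACEI arrays below both controls and both ARB arrays above them, so the drugs lay on opposite sides of the controls. The ARB minus ACEI difference was 1.28. Among the tested probe sets of the whole array, all above the filter, 4.25% had this pattern and 1.51% the opposite one. Camk2d J05072_at lay below the filter, where the share with this pattern was not counted. In the limma fit with no filter its difference had an SE of 0.37 and an adjusted p of 0.125. Its ARB minus ACEI difference within the later run day was 1.47, and the part of the raised bacterial control signal on the ARB arrays was not tested.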

How the results depend on the processing

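For ARB versus ACEI, 0 probe sets and 0 members passed in limma as reported (1238 and 4 at an unadjusted p under 0.05). With array weights 662 probe sets and 4 members passed, and with only the groups compared 381 and 4; of the 10 members above the filter also without the ARB arrays, these were 2 and 3. Leaving out 1 array gave 0 to 381 probe sets and 0 to 4 members. For the pathway genes outside the members, 0 passed for RAS blockade under every alternative run. With the replicate block 0 probe sets and 0 members passed for ARB versus ACEI (1267 and 5 at an unadjusted p under 0.05), and 0 pathway genes passed for RAS blockade. Same-numbered arrays did not deviate together, with correlations of 0.0392, -0.0141 and -0.00369 between group pairs, so the numbers were not taken to pair the arrays. Uncalled ARB minus ACEI differences changed sign as follows. Pnck AB004267_g_at was at 0.31 without ARB 1 (-0.77 without ARB 2) and 0.48 over the mean of its tested probe sets. Camk1 was at -0.14 after quantile and -0.16 after cyclic loess normalization, -0.32 in the later run day alone and without ACEI 1, and -0.29 without ARB 1 (0.61 without ACEI 2). Camkk1 was at -0.10 and -0.13 after these normalizations, -0.40 with the run day as a block, and -0.37 in the later run day alone and without ACEI 1 (0.58 without ACEI 2). The cause was not tested. Of the differences from control, 18 of 219 values for RAS blockade, 23 of 232 for ACEI and 28 of 232 for ARB moved by more than the spread between replicates. For Pnck AB004267_g_at the RAS blockade difference ran from 1.02 to 2.14, for Dapk3 AJ006971_g_at from 1.40 to 1.79 and for Cabp1 Y17048_g_at from 1.38 to 1.68. Averaging the tested probe sets of a gene gave 0.69, 2.19 and 1.54 instead, and 1.43 for Cabp1 between the drugs. The fit of only the groups compared gives no RAS blockade value, as that contrast uses all groups. Intensities near the bacterial control signal, as for Camk2a and Camk4, were not ranked.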
